A study of Mus musculus with 10 samples.

Results

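The genes examined here were 10 genes of glycogen synthesis and breakdown, chosen by name, out of 16697 genes with a symbol in the tissue expression table. They were the glycogen synthases Gys1 and Gys2, the glycogen phosphorylases Pygl, Pygb and Pygm, the branching enzyme gene Gbe1, the UDP-glucose pyrophosphorylase gene Ugp2, the protein phosphatase 1 targeting subunits Ppp1r3b and Ppp1r3c, and the phosphorylase kinase subunit Phka2. All 10 genes had a row in the table and all 10 passed the filter on low values. RNA was sequenced from mouse normal liver (NL, n = 4), from liver tumours raised with c-MYC and the empty pT3 vector (c-MYC, n = 3) and from tumours raised with c-MYC plus FOXO1AAA (c-MYC/FOXO1AAA, n = 3). FOXO1AAA is a mutant of the transcription factor FOXO1 that stays active, and the pair of tumour groups addressed how active FOXO1 alters the expression profile of c-MYC tumours. Plasmids were delivered to hepatocytes by hydrodynamic tail vein injection. Every sample carries a wild-type genotype label. The strain label reads C57BL/6, whereas the extraction protocol and the methods name FVB livers, and the descriptions of the c-MYC control tumours differ on whether MCL1 was also injected. The age of the mice and the sampling time of each tumour were not given in the sources used here. The labels do not say that each library came from a separate animal, so the p-values measure the spread between these libraries.

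Glycogen is the storage polymer of glucose and is built mainly in liver and muscle. UDP-glucose pyrophosphorylase supplies the activated glucose, glycogen synthase extends the chains and branching enzyme adds the branches. Glycogen phosphorylase, which is switched on by phosphorylase kinase, releases glucose 1-phosphate, and protein phosphatase 1, held on the glycogen particle by its targeting subunits, reverses both kinds of phosphorylation. Synthase and phosphorylase exist as isozymes encoded by separate genes. GYS2 and PYGL are the liver forms, GYS1 is the muscle form and is found in many other tissues, PYGM is the muscle phosphorylase and PYGB is the brain phosphorylase.

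The libraries held between 13123719 and 20547746 reads in the listed genes. Levels are given as FPKM, fragments scaled to gene length and to library size, obtained by raising 2 to the deposited log2 value. These values contain a prior count of 2 that the authors had added, so a gene with few reads reads slightly too high. The Foxo1 row lay between 70.08 and 95.64 FPKM in the 3 c-MYC/FOXO1AAA libraries and between 5.17 and 7.87 FPKM in the other 7. The mouse Myc row was between 0.561 and 1.11 FPKM in the 6 tumour libraries and between 4.17 and 22.24 FPKM in NL. Whether reads of the injected c-MYC are counted in that row was not tested, and it therefore gives no check of the c-MYC label. The summed FPKM of 6 hepatocyte markers (Alb, Ttr, Apoa1, Hnf4a, Tat and Cps1) was between 73590 and 81360 in NL, between 3227 and 5078 in c-MYC and between 806.1 and 1457 in c-MYC/FOXO1AAA. Of the 6, 5 were called lower in c-MYC than in NL, where the test described below called 23.6% of all genes lower. Between the tumour groups, 4 were called lower in c-MYC/FOXO1AAA, Tat was 5.29-fold higher, and Alb did not pass (log2 fold change -0.28, adjusted p = 1.0). Of all genes, 12.7% were called lower and 15.9% higher in that comparison. In bulk tissue, fewer cells of a type and less RNA per cell cannot be told apart.

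The liver isozyme genes were the ones that normal liver used. In NL, Gys2 lay between 118.5 and 166.1 FPKM and Pygl between 147.4 and 176.0 FPKM, and these ranges overlapped. Gbe1 (64.55 to 82.56 FPKM) and Ppp1r3b (49.4 to 85.44 FPKM) followed and also overlapped each other. Ppp1r3c (11.68 to 14.19 FPKM) and Phka2 (7.53 to 9.69 FPKM) came next, and the isozyme genes Pygb (1.63 to 2.97 FPKM), Gys1 (1.01 to 1.29 FPKM) and Pygm (0.507 to 0.816 FPKM) were the lowest of the 10, without overlap among these 5 genes.

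Ugp2 cannot be placed in this order from the deposited values. Its FPKM of 870.0 ± 158.1 (SD, n = 4) in NL had been scaled by a gene length of 494 bp, which is that of a non-coding transcript of the gene in GENCODE M21, while its coding transcripts are 2044 and 2683 bp long. At 2044 bp the NL level would be 210.3 ± 38.2 FPKM (SD, n = 4), and at 2683 bp it would be 160.2 ± 29.1 FPKM. Comparisons of Ugp2 between libraries are unaffected, because every library was divided by the same length.

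**Figure D1:**
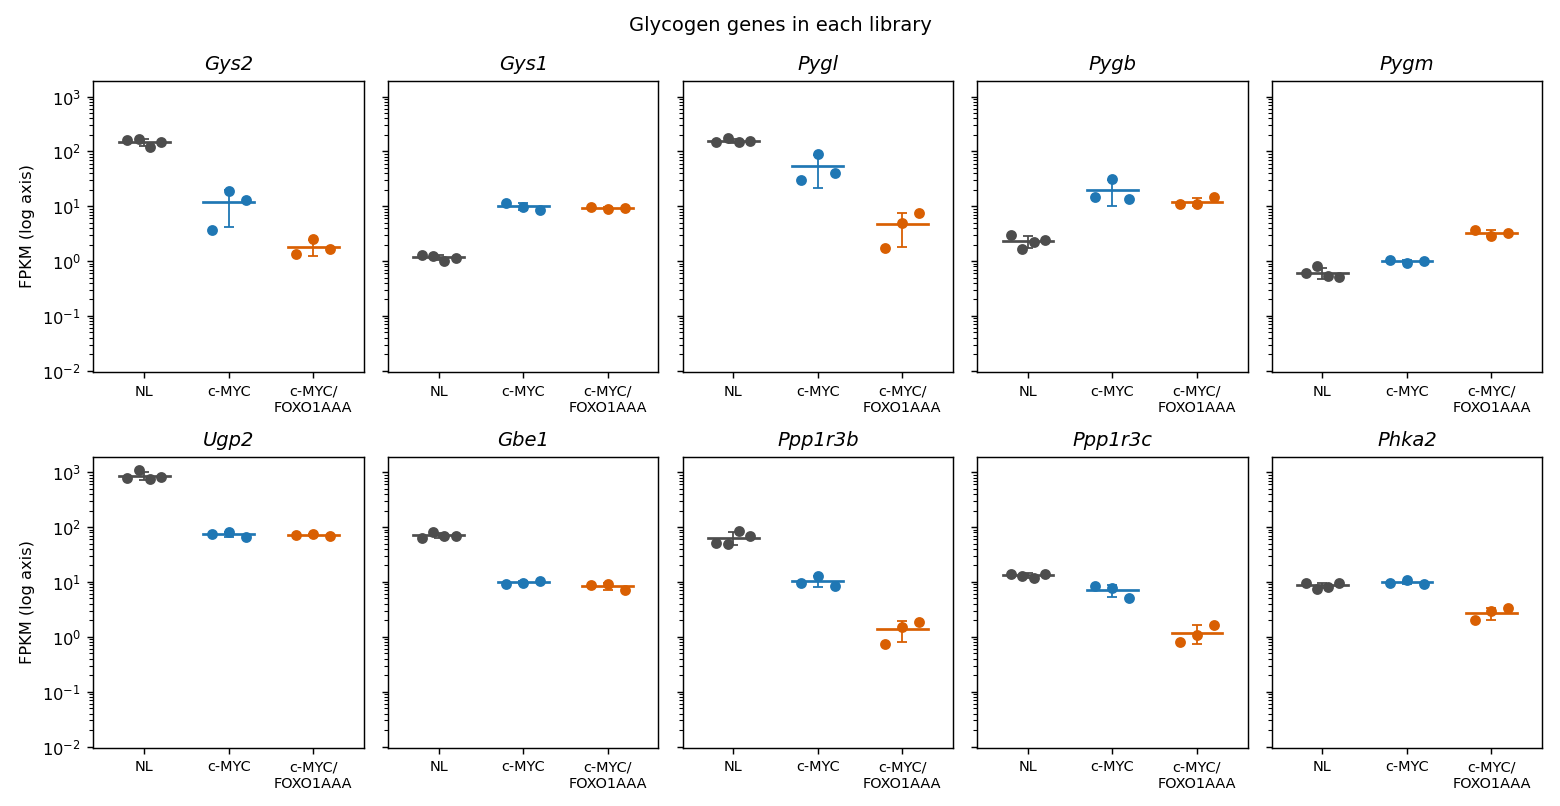
Level of each of the 10 genes in every library. The vertical axis is FPKM on a log axis, shared by all panels, each point is a library, and horizontal and vertical bars give the mean and the SD of NL (n = 4), c-MYC (n = 3) and c-MYC/FOXO1AAA (n = 3). Gys2 and Ppp1r3b step down in both tumour groups, Gys1 and Pygb step up, and Ugp2, drawn as deposited, and Gbe1 stand at like levels in the tumour groups.

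The c-MYC tumours differed from NL in both directions. Of the 10 genes, 2 rose (Gys1 and Pygb), 5 fell (Gys2, Ugp2, Gbe1, Ppp1r3b and Pygl) and 3 did not pass the test (Pygm, Ppp1r3c and Phka2). The test was limma's treat against a 1.5-fold change with Benjamini-Hochberg adjustment over 14017 genes, which called 48.1% of all genes in this comparison, 24.5% higher and 23.6% lower. The groups did not overlap for 9 of the 10 genes, against 73.9% of all genes tested. The median log2 fold change was -1.30 over the 10 genes and 0.08 over all genes tested.

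Between the tumour groups, 5 of the 10 genes were called lower with FOXO1AAA. Gys2, Pygl, Ppp1r3b, Ppp1r3c and Phka2 were lower in c-MYC/FOXO1AAA compared with c-MYC, Pygm was higher, and Gys1, Pygb, Gbe1 and Ugp2 did not pass the test. The test called 28.7% of all genes in this comparison, 15.9% higher and 12.7% lower. The groups did not overlap for 6 of the 10 genes, against 63.4% of all genes. The median log2 fold change was -1.25 over the 10 genes and 0.03 over all genes. Against NL, which also served as the control of the first comparison, all 10 genes were called in c-MYC/FOXO1AAA, 3 higher and 7 lower, where the test called 57.8% of all genes, 31.2% higher and 26.6% lower. None of the 10 overlapped between those groups, as was so for 80.1% of all genes tested.

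**Figure D2:**
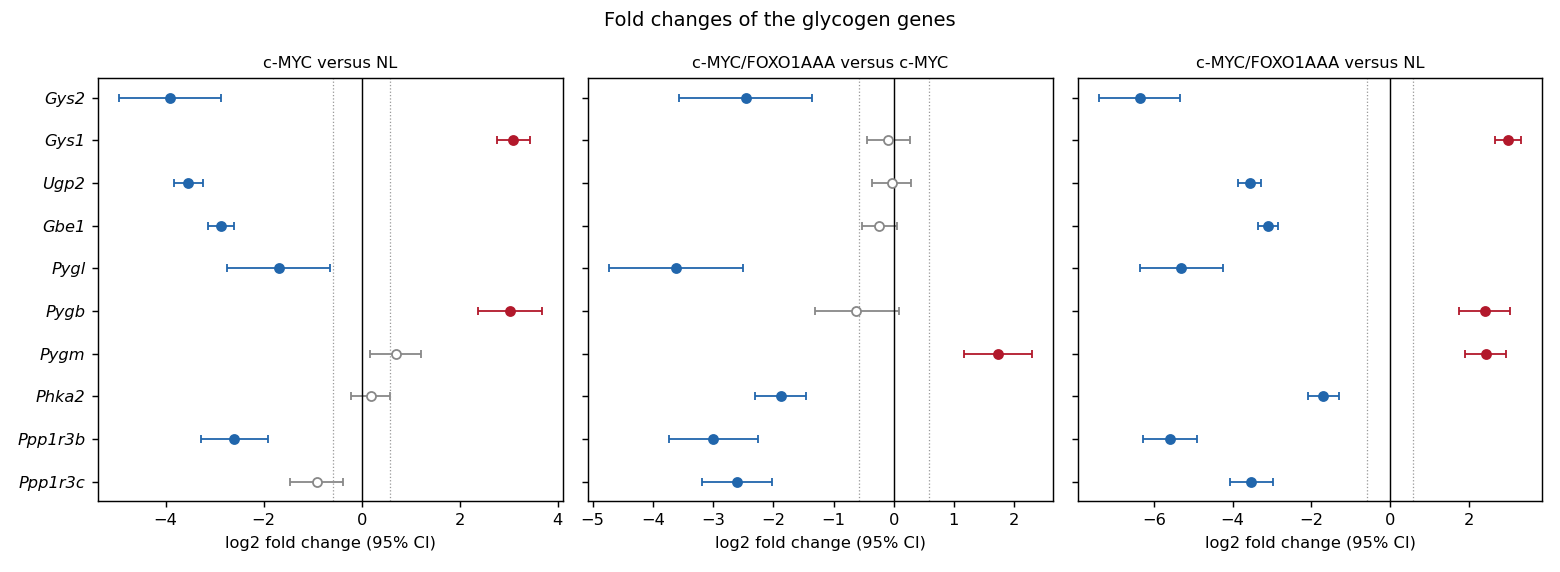
log2 fold change of each gene with its 95% confidence interval in the 3 comparisons. The horizontal axis is the log2 fold change and its scale differs between panels. Red points are called higher, blue points lower, open grey points did not pass the test, and dotted lines mark a 1.5-fold change. Gys1 and Ugp2 lie at 3.09 and -3.54 in c-MYC versus NL and near 0 in c-MYC/FOXO1AAA versus c-MYC.

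Gys2, the liver synthase gene on chromosome 6 (GRCm38, 142422613 to 142473109, minus strand), fell at both steps. Its level was 159.0, 166.1, 118.5 and 149.6 FPKM in NL 1 to 4, then 3.70, 18.94 and 13.20 FPKM in c-MYC 1 to 3, then 1.33, 2.51 and 1.68 FPKM in c-MYC/FOXO1AAA 1 to 3. The 3 groups did not overlap, and c-MYC 1 stood below the other c-MYC libraries, nearer to the c-MYC/FOXO1AAA range. The level was 15.1-fold lower in c-MYC than in NL (log2 fold change -3.92 ± 0.47, SE, adjusted p = 7.51e-05). It was 5.49-fold lower again in c-MYC/FOXO1AAA compared with c-MYC (log2 fold change -2.46 ± 0.50, SE, adjusted p = 0.00838). Without c-MYC 1 these differences were -3.22 and -3.15, and both still passed the test (adjusted p = 1.23e-05 and 3.9e-05). Reads behind these values numbered at least 3072 in each NL library and between 84 and 196 in each c-MYC/FOXO1AAA library.

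Gys1, the muscle-type synthase gene on chromosome 7 (GRCm38, 45434844 to 45456619, plus strand), moved the other way at the first step. It stood at 1.29, 1.24, 1.01 and 1.12 FPKM in NL 1 to 4. The c-MYC libraries held 11.5, 9.90 and 8.51 FPKM and the c-MYC/FOXO1AAA libraries 9.71, 8.88 and 9.36 FPKM. All 6 tumour libraries were above every NL library, and the tumour groups overlapped. Gys1 was 8.53-fold higher in c-MYC than in NL (log2 fold change 3.09 ± 0.15, SE, adjusted p = 1.02e-07). Between the tumour groups its log2 difference was -0.09 with a 95% interval from -0.44 to 0.27 (adjusted p = 1.0), and the sign turned to 0.08 when all libraries were scaled to the same FPKM total.

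The gain of Gys1 was small beside the loss of Gys2 on the per-length scale. In c-MYC, mean Gys1 was 8.81 FPKM higher than in NL, and mean Gys2 was lower by the larger amount, with a difference of -136.3 FPKM. The sum of both synthases was 149.5 ± 21.1 FPKM in NL (SD, n = 4), 21.92 ± 6.83 FPKM in c-MYC (SD, n = 3) and 11.16 ± 0.20 FPKM in c-MYC/FOXO1AAA (SD, n = 3).

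Shares were taken from reads per kilobase of gene length, without the prior count. On that scale Gys2 made up 99.18 to 99.28% of the 2 synthases in the NL libraries. It made up 24.2, 65.7 and 60.8% in c-MYC 1 to 3 and 11.7, 21.8 and 14.9% in c-MYC/FOXO1AAA 1 to 3. Gys1 was therefore the larger of the 2 genes in 4 of the 6 tumour libraries, namely c-MYC 1 and the 3 c-MYC/FOXO1AAA libraries. The Gys2 to Gys1 log2 ratio, which does not depend on how a library was scaled, was 6.99 ± 0.09 in NL (SD, n = 4), -0.02 ± 1.41 in c-MYC (SD, n = 3) and -2.39 ± 0.53 in c-MYC/FOXO1AAA (SD, n = 3). No group overlapped another. With 4 against 3 libraries the smallest p that the exact 2-sided permutation test can give is 0.0571, and with 3 against 3 it is 0.1, so these comparisons could not reach 0.05. The exact p was 0.0571 for each tumour group against NL (0.0857 adjusted over the 9 ratio tests) and 0.1 between the tumour groups (0.1 adjusted).

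**Figure D3:**
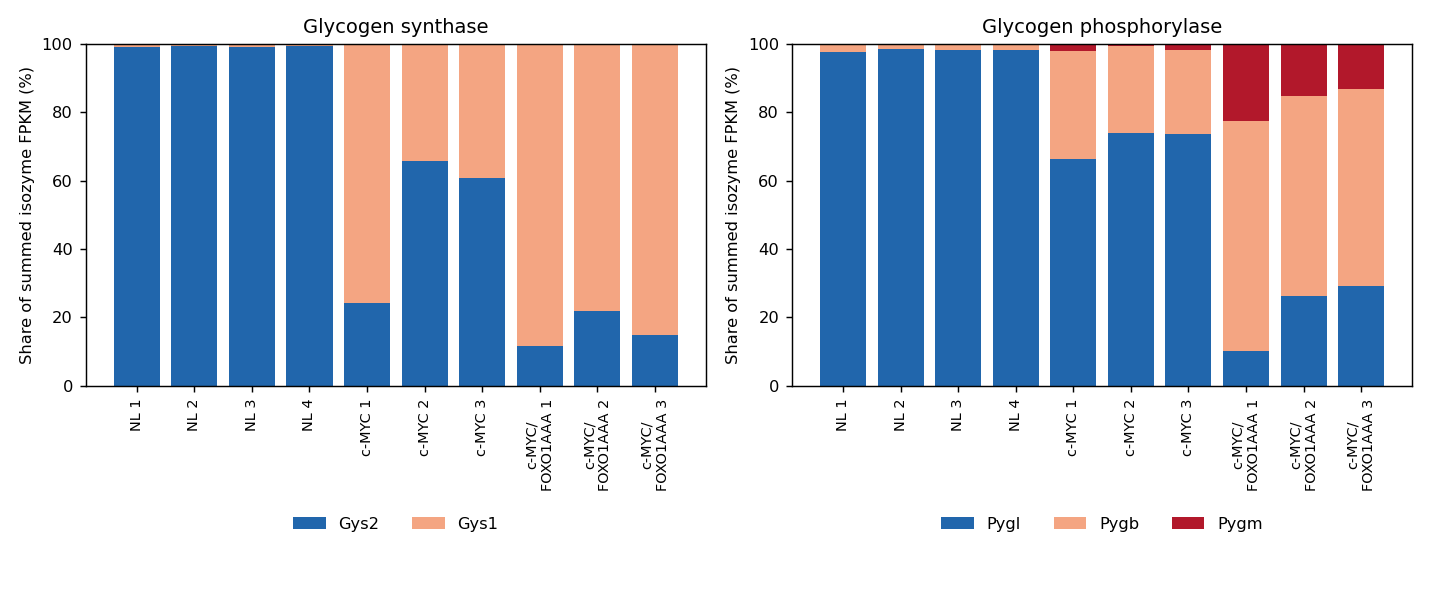
Share of each isozyme gene in glycogen synthase (left, Gys2 and Gys1) and glycogen phosphorylase (right, Pygl, Pygb and Pygm) in each library, in percent. The axis names FPKM, but the shares were taken from reads per kilobase of gene length, without the prior count. The bars of NL are filled almost entirely by Gys2 and Pygl, and in the c-MYC/FOXO1AAA libraries Gys2 and Pygl hold 11.7 to 21.8% and 10.3 to 29.2%.

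Pygl, the liver phosphorylase gene on chromosome 12 (GRCm38, 70190811 to 70231488, minus strand), fell at both steps, the first of them near the threshold of the test. It was 147.4, 176.0, 149.0 and 156.2 FPKM in NL 1 to 4. It was 30.67, 91.68 and 40.76 FPKM in c-MYC 1 to 3 and 1.72, 4.89 and 7.39 FPKM in c-MYC/FOXO1AAA 1 to 3. The groups did not overlap, c-MYC 2 was the highest tumour library and c-MYC/FOXO1AAA 1 the lowest. Pygl was 12.3-fold lower in c-MYC/FOXO1AAA compared with c-MYC (log2 fold change -3.62 ± 0.50, SE, adjusted p = 0.000453), and this fall passed the test under all 22 alternatives. The fall from NL to c-MYC was 3.23-fold (log2 fold change -1.69 ± 0.47, SE, adjusted p = 0.0432) and was close to the threshold. Its adjusted p was above 0.05 in 11 of 22 alternatives, with a range from 0.0076 to 0.473. Among them, scaling to the same FPKM total gave a log2 fold change of -0.76, and leaving out c-MYC 1 or c-MYC 3 gave adjusted p values of 0.164 and 0.111.

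Pygb, the brain-type phosphorylase gene on chromosome 2 (GRCm38, 150786735 to 150831758, plus strand), rose in the tumours. NL 1 to 4 held 2.97, 1.63, 2.23 and 2.43 FPKM. The c-MYC libraries held 14.61, 31.26 and 13.72 FPKM and the c-MYC/FOXO1AAA libraries 11.04, 10.8 and 14.6 FPKM. Every tumour library exceeded every NL library, c-MYC 2 stood above the rest, and the tumour groups overlapped. Pygb was 8.15-fold higher in c-MYC (log2 fold change 3.03 ± 0.29, SE, adjusted p = 2.07e-05) and 5.31-fold higher in c-MYC/FOXO1AAA than in NL (log2 fold change 2.41 ± 0.29, SE, adjusted p = 0.000127). Between the tumour groups the log2 difference was -0.62 with a 95% interval from -1.31 to 0.08 (adjusted p = 0.943).

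Pygm, the muscle phosphorylase gene on chromosome 19 (GRCm38, 6384399 to 6398459, plus strand), was low throughout. It stood at 0.608, 0.816, 0.540 and 0.507 FPKM in NL 1 to 4, from 12 to 21 reads a library. It was 1.03, 0.928 and 1.01 FPKM in the c-MYC libraries and 3.73, 2.83 and 3.32 FPKM in the c-MYC/FOXO1AAA libraries. The groups did not overlap, and the c-MYC/FOXO1AAA libraries were the highest 3. Outside c-MYC/FOXO1AAA only c-MYC 1 and 3 reached 1 FPKM, so Pygm was tested only through the group where it was highest. Pygm was 3.32-fold higher in c-MYC/FOXO1AAA compared with c-MYC (log2 fold change 1.73 ± 0.25, SE, adjusted p = 0.00254), a call that was lost after quantile normalization (adjusted p = 0.0765). Its log2 difference between c-MYC and NL was 0.70 with a 95% interval from 0.18 to 1.22 (adjusted p = 0.505).

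Some skeletal muscle genes were higher in the same libraries as Pygm. The summed FPKM of 8 muscle markers (Ckm, Acta1, Myh1, Myh4, Ttn, Tnnt3, Myod1 and Myog) was between 0.697 and 0.837 in NL, between 1.30 and 6.05 in c-MYC and between 263.5 and 369.3 in c-MYC/FOXO1AAA. In NL, 7 of the 8 had at most 3 reads in every library, in c-MYC 4 of the 8 (Myh1, Tnnt3, Myod1 and Myog), and in c-MYC/FOXO1AAA none. In c-MYC/FOXO1AAA the muscle sum was mostly Tnnt3 and Acta1 (means of 160.4 and 110.2 FPKM). Ckm was already called higher in c-MYC than in NL and did not pass between the tumour groups (log2 fold change 1.28, adjusted p = 0.489). Myh1, Myh4 and Ttn did not pass the filter on low values. Summed brain and glia markers (6 genes) were between 4.53 and 7.77 FPKM in NL, between 19.4 and 24.0 in c-MYC and between 210.0 and 284.2 in c-MYC/FOXO1AAA, where Gfap still had at most 3 reads in every library. The c-MYC sum was mostly Mbp, a myelin gene (mean of 20.07 FPKM, called higher than in NL), while Olig1 and Syp were called lower there than in NL. Olig1 had a mean of 1.105 FPKM in NL and 0.0632 FPKM in c-MYC, with at most 3 reads in every c-MYC library. Only c-MYC/FOXO1AAA held Olig1 well above the filter on low values, so this call rests on values near the floor. The c-MYC/FOXO1AAA sum was mostly Olig1 and Olig2, transcription factor genes of the oligodendrocyte lineage (means of 165.4 and 65.59 FPKM). Syp, the gene of a synaptic vesicle protein, did not pass against either other group in c-MYC/FOXO1AAA, at a mean of 1.30 FPKM against 3.11 FPKM in NL. Summed stellate and fibroblast markers (5 genes) were between 75.01 and 96.65, between 5.50 and 20.75 and between 284.5 and 388.6 FPKM in the same order. The last of these sums was mostly Dcn and Des (means of 235.7 and 62.73 FPKM), and Des is also a muscle gene. Lrat, a marker of stellate cells, was 15.2-fold lower in c-MYC/FOXO1AAA than in NL, and Reln did not pass in that comparison (log2 fold change 0.22, adjusted p = 1.0). Mean Lrat was 3.85 FPKM in NL, 0.0967 FPKM in c-MYC and 0.278 FPKM in c-MYC/FOXO1AAA. Lrat thus passed the filter on low values only through NL, where it was high. The part of these cell types in the levels of Pygm, Pygb and Gys1 was not tested.

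Pygl was the largest of the 3 phosphorylase genes in NL and c-MYC, and Pygb in c-MYC/FOXO1AAA. As a share of summed phosphorylase reads per kilobase, Pygl made up 97.7 to 98.7% in NL and 66.3, 74.1 and 73.5% in c-MYC 1 to 3. It made up 10.3, 26.4 and 29.2% in c-MYC/FOXO1AAA 1 to 3. Pygb took 24.7 to 31.6% in c-MYC and 57.8 to 67.2% in c-MYC/FOXO1AAA, where Pygm took 13.0 to 22.5%. The Pygl to Pygb log2 ratio was 6.11 ± 0.47 in NL (SD, n = 4), 1.40 ± 0.28 in c-MYC (SD, n = 3) and -1.60 ± 0.94 in c-MYC/FOXO1AAA (SD, n = 3). The Pygl to Pygm log2 ratio was 8.01, 5.62 and 0.28 in the same order. Neither ratio overlapped between any pair of groups, and the exact permutation p values were again the smallest possible, 0.0571 against NL (0.0857 adjusted) and 0.1 between the tumour groups (0.1 adjusted).

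Summed over isozymes, phosphorylase transcripts were 160.1 ± 12.8 FPKM in NL (SD, n = 4), 75.2 ± 42.4 FPKM in c-MYC (SD, n = 3) and 20.1 ± 4.62 FPKM in c-MYC/FOXO1AAA (SD, n = 3). The log2 ratio of summed phosphorylase to summed synthase was -0.09, 0.09, 0.35 and 0.08 in NL 1 to 4, 1.61, 2.10 and 1.35 in c-MYC 1 to 3, and 0.58, 0.70 and 1.2 in c-MYC/FOXO1AAA 1 to 3. The ranges of the 3 groups did not overlap, with NL lowest and c-MYC highest. This ratio was formed after the values of the genes were known and was not tested.

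The genes of the steps before and after synthase fell in c-MYC and did not pass the test between the tumour groups. Ugp2, which makes UDP-glucose and lies on chromosome 11 (GRCm38, 21321138 to 21371201, minus strand), was 11.6-fold lower in c-MYC than in NL (log2 fold change -3.54 ± 0.14, SE, adjusted p = 1.73e-08). Its log2 difference between c-MYC/FOXO1AAA and c-MYC was -0.03 with a 95% interval from -0.36 to 0.29 (adjusted p = 1.0). That sign turned with the scaling, to 0.14 at the same FPKM total and 0.21 after quantile normalization. Gbe1, the branching enzyme gene on chromosome 16 (GRCm38, 70313949 to 70569716, plus strand), was 71.8 ± 7.63 FPKM in NL (SD, n = 4), 9.80 ± 0.64 FPKM in c-MYC (SD, n = 3) and 8.35 ± 1.11 FPKM in c-MYC/FOXO1AAA (SD, n = 3). It was 7.31-fold lower in c-MYC than in NL (adjusted p = 3.94e-08), and its log2 difference between the tumour groups was -0.24 with a 95% interval from -0.52 to 0.05 (adjusted p = 1.0).

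Ppp1r3b, on chromosome 8 (GRCm38, 35375739 to 35388139, plus strand), encodes the phosphatase targeting subunit that is abundant in liver. It stood at 52.01, 49.4, 85.44 and 68.77 FPKM in NL 1 to 4, at 9.65, 13.1 and 8.55 FPKM in c-MYC 1 to 3, and at 0.746, 1.54 and 1.86 FPKM in c-MYC/FOXO1AAA 1 to 3. The groups did not overlap at either step. Ppp1r3b was 6.07-fold lower in c-MYC than in NL (adjusted p = 0.000137) and 7.98-fold lower in c-MYC/FOXO1AAA compared with c-MYC (log2 fold change -3.0 ± 0.33, SE, adjusted p = 0.000117).

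Ppp1r3c, on chromosome 19 (GRCm38, 36731731 to 36736653, minus strand), encodes the more widely expressed subunit known as PTG. NL 1 to 4 held 14.19, 12.84, 11.68 and 14.02 FPKM, c-MYC 1 to 3 held 8.36, 7.87 and 5.09 FPKM, and c-MYC/FOXO1AAA 1 to 3 held 0.820, 1.08 and 1.68 FPKM. The groups did not overlap, but the difference between c-MYC and NL did not pass the 1.5-fold test (log2 fold change -0.92 with a 95% interval from -1.46 to -0.38, adjusted p = 0.182) and was 0.01 when libraries were scaled to the same FPKM total. The level was 6.09-fold lower in c-MYC/FOXO1AAA compared with c-MYC (log2 fold change -2.61 ± 0.26, SE, adjusted p = 6.59e-05).

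Phka2, the liver alpha subunit of phosphorylase kinase on chromosome X (GRCm38, 160502166 to 160598878, plus strand), was called lower in c-MYC/FOXO1AAA against both other groups and did not pass between c-MYC and NL. Its level was 9.69, 7.53, 8.15 and 9.49 FPKM in NL 1 to 4 and 9.76, 10.68 and 9.19 FPKM in c-MYC 1 to 3. In c-MYC/FOXO1AAA 1 to 3 it was 1.99, 2.91 and 3.30 FPKM, below all 7 other libraries. Phka2 was 3.69-fold lower in c-MYC/FOXO1AAA compared with c-MYC (log2 fold change -1.88 ± 0.19, SE, adjusted p = 0.000152). Against NL the difference was -1.70 ± 0.18 (SE, adjusted p = 0.000112) and no longer passed at the same FPKM total (log2 fold change -0.60, adjusted p = 0.558), a scaling that moved the median of all genes in that comparison from 0.21 to 1.36. The c-MYC and NL libraries overlapped, with a log2 difference of 0.19 and a 95% interval from -0.21 to 0.58 (adjusted p = 1.0), which became 1.11 at the same FPKM total (adjusted p = 0.0081).

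Within the tumour groups, the libraries were not alike. In c-MYC/FOXO1AAA 1, Gys2, Pygl, Ppp1r3b, Ppp1r3c and Phka2 were at their lowest of all 10 libraries, and Gys1 and Pygm were at the highest of their group. The hepatocyte marker sum was 806.1 FPKM in that library, against 1457 and 1432 FPKM in c-MYC/FOXO1AAA 2 and 3. In c-MYC 2, Gys2, Pygl, Pygb, Ppp1r3b, Ugp2 and Phka2 were the highest of the c-MYC libraries, and the hepatocyte marker sum was 5078 FPKM against 3397 and 3227 FPKM. The part of these differences in the levels of the 10 genes was not tested. Without c-MYC 2, Pygl was lower in c-MYC than in NL by a log2 fold change of -2.15, and it was still lower in c-MYC/FOXO1AAA compared with c-MYC (log2 fold change -3.16). Without c-MYC/FOXO1AAA 1, the latter difference was -3.01 in place of -3.62.

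The promoters were compared for short motifs of the factors under study. RefSeq sequences of GRCm38.p6 covering 250 bases before to 50 bases after a gene start were at hand for 8 of the 10 genes, in 9 windows, since Ugp2 has a pair of starts. Gys2 and Ppp1r3b had no entry. The motif CACGTG, a palindrome read by c-MYC among other factors, was found in 1 of the 9 windows, that of Ppp1r3c, against 7.15% of 32851 windows of all genes. The forkhead motif GTAAACA and the insulin response motif CAAAACAA, searched on both strands, share no overlap with CACGTG and were found in 0 of the 9 windows, against 3.65% and 2.51% of all windows. At these rates 0 matches in 9 windows was likely in any case, so the search cannot show a lack of such sites. For CACGTG, 1 match in 9 windows was also not unusual at 7.15% and shows no enrichment. The bases G and C made up 54.3 to 76.0% of the 9 windows, against a median of 52.7% over all windows. The rates over all windows are therefore not from windows of like base content. The match in Ppp1r3c begins at position -104 from the RefSeq start used for its window. That start differs from the GENCODE start of the gene at 36736653. The match is shown on the minus strand (chr19:36736691-36736720) with the motif in capitals, as the single match among the windows read.
Ppp1r3c: gagggaccggttCACGTGatctggctttga

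Other genes of glycogen metabolism were counted from a list of 25 symbols, of which 23 had a row and 20 passed the filter on low values. In c-MYC against NL, 4 rose, 4 fell and 12 did not pass. In c-MYC/FOXO1AAA against c-MYC, 3 rose and 2 fell, and against NL, 7 rose and 6 fell. The shares called, 40.0%, 25.0% and 65.0% of the 20, stand beside 48.1%, 28.7% and 57.8% of all genes. The median log2 fold changes were -0.20, 0.03 and -0.06, beside 0.08, 0.03 and 0.21 over all genes.

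Gyg, which encodes glycogenin, the protein primer on which a new glycogen particle is begun, rose at both steps. It was 5.13 ± 1.2 FPKM in NL (SD, n = 4), 16.31 ± 1.53 FPKM in c-MYC (SD, n = 3) and 50.2 ± 10.2 FPKM in c-MYC/FOXO1AAA (SD, n = 3). The log2 fold changes were 1.69 ± 0.19 and 1.61 ± 0.20 (SE, adjusted p = 0.00022 and 0.00109), and the groups did not overlap. The direction was thus opposite to that of Gys2 at each step.

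Pgm1, the main phosphoglucomutase, which converts glucose 1-phosphate, was called lower in c-MYC/FOXO1AAA. It stood between 145.1 and 175.7 FPKM in NL and between 147.9 and 154.9 FPKM in c-MYC. It was between 24.55 and 36.67 FPKM in c-MYC/FOXO1AAA, 5.36-fold lower than in c-MYC (adjusted p = 2.17e-06). The paralog Pgm2 rose in c-MYC (log2 fold change 2.19 ± 0.21, SE, adjusted p = 3.27e-05), with a log2 difference between the tumour groups of -0.08 (0.09 at the same FPKM total). Pgm5, a relative found mainly in muscle and without the mutase function, was 8.10 ± 1.79 FPKM in c-MYC/FOXO1AAA (SD, n = 3) and 0.170 ± 0.035 FPKM in c-MYC (SD, n = 3), from 6 to 10 reads (log2 fold change 5.57 ± 0.44, SE, adjusted p = 4.21e-06). Pgm5 passed the filter on low values only through c-MYC/FOXO1AAA, where it was high.

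Apart from Phka1, the remaining genes were named because they were called and had the largest changes. How many of them rose or fell was set by that choice. Stbd1, which tethers glycogen to membranes, fell 4.68-fold in c-MYC (adjusted p = 9.87e-06). Ppp1r3g, another targeting subunit, and Epm2a, the glycogen phosphatase laforin, were lower in c-MYC by log2 fold changes of -3.26 and -3.14 (adjusted p = 6.5e-05 and 1.45e-05), with 12 to 14 and 12 to 28 reads in the c-MYC libraries. Both genes passed the filter on low values only through NL, where they were high. Ppp1cc, a catalytic subunit of protein phosphatase 1, rose (log2 fold change 1.64 ± 0.10, SE, adjusted p = 2.34e-06). Gsk3b, a kinase that inactivates glycogen synthase, was higher in c-MYC/FOXO1AAA compared with c-MYC (log2 fold change 1.72 ± 0.22, SE, adjusted p = 0.00098). Phka1, the muscle counterpart of Phka2, passed in none of the 3 comparisons, with log2 differences of -0.77, 0.77 and 0.01 (adjusted p = 0.359, 0.533 and 1.0).

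**Figure D4:**
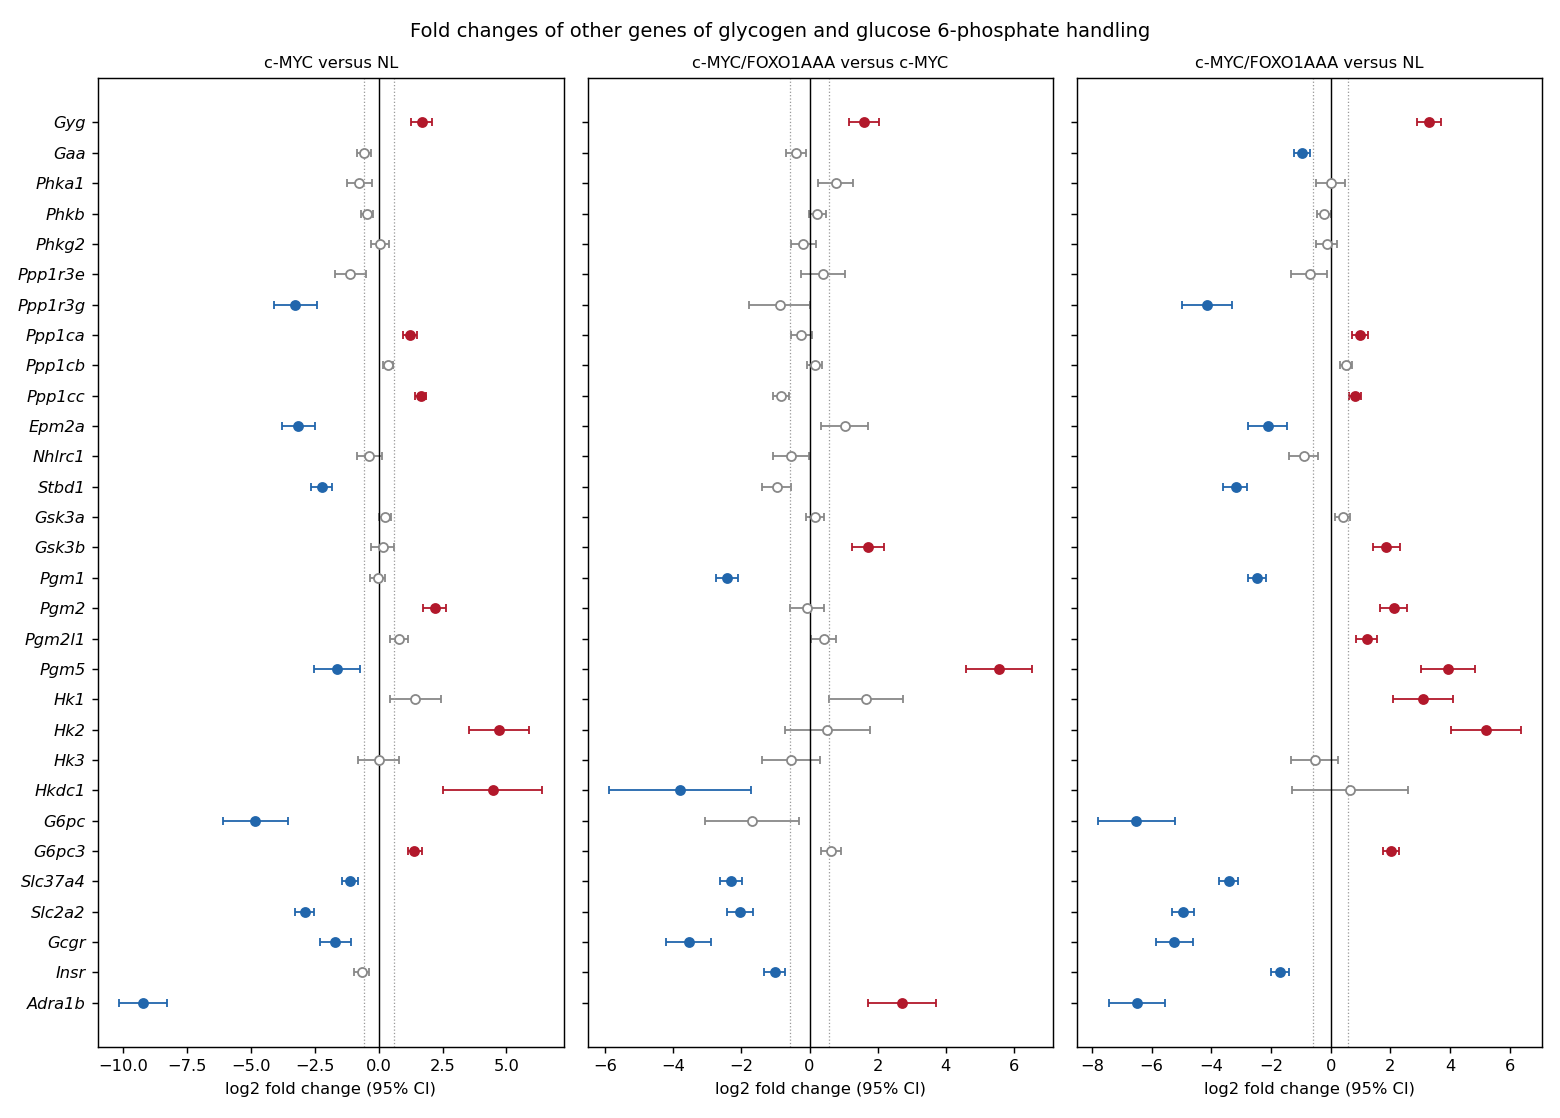
log2 fold change with its 95% confidence interval for the genes reported here among the other glycogen genes that passed the filter (Gyg to Pgm5), the glucose 6-phosphate genes (Hk1 to Slc2a2) and hormone receptors (Gcgr to Adra1b) in the 3 comparisons, on horizontal axes that differ between panels. Red is called higher, blue lower, open grey did not pass, and dotted lines mark a 1.5-fold change. Gyg is red in all 3 panels, and Pgm1 is blue in the panels that hold c-MYC/FOXO1AAA.

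Genes that supply or remove glucose 6-phosphate, the compound that joins glycogen to glycolysis and glucose release, were called in 7 of 9 cases in c-MYC against NL, 3 higher and 4 lower, where the test called 48.1% of all genes, 24.5% higher and 23.6% lower. G6pc, the liver glucose 6-phosphatase gene, fell by 4.82 on the log2 scale (SE 0.58, adjusted p = 6.61e-05). Hk2, a hexokinase of muscle and of many tumours, was higher in c-MYC by a log2 fold change of 4.70 ± 0.53 (SE, adjusted p = 3.83e-05), and Hkdc1 by 4.46 ± 0.88 (SE, adjusted p = 0.00211).

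In c-MYC/FOXO1AAA against c-MYC, 4 of these 9 genes fell and 0 rose, where the test called 28.7% of all genes, 15.9% higher and 12.7% lower. Hkdc1 was 0.242 ± 0.202 FPKM (SD, n = 3; log2 fold change -3.81 ± 0.94, SE, adjusted p = 0.0146), against 0.168 ± 0.163 FPKM in NL (SD, n = 4), where 1 library held 0 reads. Without c-MYC/FOXO1AAA 2 the difference between the tumour groups no longer passed (log2 fold change -2.95, adjusted p = 0.0675). Hkdc1 passed the filter on low values only through c-MYC, where it was high. Slc37a4, the glucose 6-phosphate transporter gene, was 4.91-fold lower (adjusted p = 3.41e-06). Hk1 was higher in c-MYC/FOXO1AAA than in NL (log2 fold change 3.09 ± 0.45, SE, adjusted p = 0.000319).

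Hormone receptor genes were also called between the tumour groups. Gcgr, the glucagon receptor gene, was 211.4 ± 3.49 FPKM in NL (SD, n = 4), 65.8 ± 10.5 FPKM in c-MYC (SD, n = 3) and 6.10 ± 3.14 FPKM in c-MYC/FOXO1AAA (SD, n = 3), and it was called lower at both steps (adjusted p = 0.00327 and 1.25e-05). The first of these calls was lost in 2 of 22 alternatives, the same FPKM total (log2 fold change -0.77, adjusted p = 0.324) and quantile normalization. Insr, the insulin receptor gene, was lower in c-MYC/FOXO1AAA compared with c-MYC (log2 fold change -1.02 ± 0.14, SE, adjusted p = 0.022), with an adjusted p above 0.05 in 6 of 22 alternatives. Adra1b, an adrenergic receptor of liver, was between 51.15 and 59.65 FPKM in NL and held 2, 1 and 12 reads in c-MYC 1 to 3 and 39 to 61 reads in c-MYC/FOXO1AAA. Adra1b passed the filter on low values only through NL, where it was high. It was called lower in c-MYC than in NL (adjusted p = 2.85e-08) and higher in c-MYC/FOXO1AAA compared with c-MYC (log2 fold change 2.72, adjusted p = 0.00192). The latter call was lost in 2 of 22 alternatives, a pseudocount of 1 (log2 fold change 0.54, adjusted p = 1.0) and quantile normalization.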

How the data were processed

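Total RNA from 10 mouse liver and liver tumour samples was sequenced. The submitters' processing notes name FastQC 0.11.7 and GRCm38. According to the methods, the authors counted reads per gene, converted identifiers to symbols and worked in R with edgeR. The aligner and the counting tool are not given in the sources used here, and strandedness is not stated. The deposited unit is log2 FPKM, per the file headers and the methods, with a prior count of 2 added by the authors before the logarithm. Each column was matched to a sample by name, and groups came from the sample titles.

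Of 17069 rows, 372 without a symbol or value were left out. Because the prior count sets a floor for each gene length, whole reads were recovered for the remaining 16697 genes (tolerance 0.001 reads, lengths up to 130000 bp), with a single solution for 99.62%. Of 16625 genes matched by symbol to GENCODE M21, 97.7% matched the length of a transcript. Reads served for depth, for lengths and for the isozyme shares, while the log2 ratios of isozymes were taken from FPKM. The 95% intervals come from the variance among libraries in limma, and read numbers show counting depth only.

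The deposited log2 values were tested with limma 3.58.1 (R 4.3.3), treat against 1.5-fold with trend and robust variance over all 10 libraries, on 14017 genes with at least 1 FPKM in at least 3 libraries, and called at an adjusted p below 0.05. Some genes met this filter only through the group where they were high, so their being tested depended on that group. They included Pygm and Pgm5 (c-MYC/FOXO1AAA), Hkdc1 (c-MYC), and Ppp1r3g, Epm2a, Adra1b and Lrat (NL). The count model of the study was not used, since the deposited unit is not a count. The procedure was also run on simulated data in which few genes changed, between the tumour groups only, with the same dispersion for every gene. Those settings differ from these data, so the run does not show how the test performs here. Ratios were tested with an exact permutation test (scipy 1.17.1), in which the smaller tail is doubled. Replicates were compared by chi-square per degree of freedom (8.7 to 31.6), so no library was a mere second sequencing of another. This cannot show that the libraries came from separate animals. The scaling factor of the authors, effective library size over reads, was 0.649 to 0.684 in NL, 1.256 to 1.295 in c-MYC and 1.454 to 1.502 in c-MYC/FOXO1AAA.

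The 10 genes and all lists were chosen with earlier results of these data known. Named besides them were the 3 called genes of largest change per comparison and direction among the other glycogen genes, with Gyg and Phka1, and at most 2 per comparison and direction among the glucose 6-phosphate genes and receptors, with G6pc. Some genes under this rule are not reported here. Also named were the 3 genes nearest in profile to each isozyme gene. Alternatives covered pseudocount, low-value filter, scaling, fold threshold, variance model, the groups fitted, a replicate block and leaving out each library.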

Additional observations from a re-analysis of the deposited data

How the results depend on the processing

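Each comparison was repeated under up to 22 alternatives. The numbers of the 10 genes called lower stayed between 4 and 6 in c-MYC against NL, at 5 in c-MYC/FOXO1AAA against c-MYC, and between 6 and 7 in c-MYC/FOXO1AAA against NL. Scaling to the same FPKM total moved the median of all genes from 0.08 to 1.05 in c-MYC against NL and raised the number of the 10 genes called higher there from 2 to 4. The number called higher in c-MYC/FOXO1AAA against c-MYC went from 1 to 0 after quantile normalization and with a filter of mean FPKM of at least 5, which leaves Pygm untested. Among the other glycogen genes, the same FPKM total gave 10 higher in c-MYC and 12 higher in c-MYC/FOXO1AAA against NL. The filter at 5 gave 1 lower in c-MYC against NL. Dropping the fold threshold gave 9 lower in c-MYC against NL and 5 higher and 5 lower in c-MYC/FOXO1AAA against c-MYC, where equal medians and quantile normalization each gave 4 lower. A 2-fold threshold gave 4 higher in c-MYC/FOXO1AAA against NL. Signs turned for differences that had not passed the test. At the same FPKM total the log2 difference became 0.08 for Gys1, 0.14 for Ugp2 and 0.09 for Pgm2 between the tumour groups. In c-MYC against NL it became 0.01 for Ppp1r3c, 0.26 for Insr, 0.16 for Phka1 and 0.88 for Pgm1 (adjusted p = 0.0258). Quantile normalization gave 0.21 for Ugp2 and -0.06 for Epm2a between the tumour groups, 0.52 for Pgm1 in c-MYC against NL, and -0.27 for Hkdc1 and -0.52 for Phka1 in c-MYC/FOXO1AAA against NL, where equal medians gave -0.13 for Phka1. Leaving out single libraries moved the difference between the tumour groups from -0.20 to 0.02 for Gys1, from -0.12 to 0.04 for Ugp2 and from -0.28 to 0.03 for Pgm2. It moved Pgm1 from -0.08 to 0.01 in c-MYC against NL, and Hkdc1 from -0.05 to 1.5 and Phka1 from -0.05 to 0.11 in c-MYC/FOXO1AAA against NL. The cause of these shifts was not tested.

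For same-numbered libraries, deviations from the group means correlated between -0.04 and 0.027. These values gave no sign of pairing, but with so few libraries in each group they cannot exclude a shared batch. With the replicate number as a block, the 10 genes gave 2 higher and 5 lower in c-MYC against NL, 1 and 5 in c-MYC/FOXO1AAA against c-MYC, and 3 and 7 against NL, the difference of Phka1 in c-MYC/FOXO1AAA against NL became -0.02, and the log2 ratios kept their direction. The ratio differences kept their direction under all their alternatives. Counting permutations by absolute difference, not by doubling a tail, would give an exact p of 0.0286 for each tumour group against NL. Depth limited Pygm in NL (12 to 21 reads) and Adra1b and Pgm5 in c-MYC (1 to 12 and 6 to 10 reads).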

Other observations

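The profiles nearest to each isozyme gene were sought by the root mean square difference of centred log2 values over the 10 libraries, which is a description and carries no test. Nearest to Gys2 was Acacb, the mitochondrial acetyl-CoA carboxylase gene (0.39 on the log2 scale), with means of 28.95, 1.54 and 0.350 FPKM in NL, c-MYC and c-MYC/FOXO1AAA, followed by Slc38a3 (0.44) and Aldh8a1 (0.48). Nearest to Pygl was Mgam (0.29), with means of 26.34, 7.35 and 0.627 FPKM, followed by Acsl1, a long-chain acyl-CoA synthetase gene (0.34), and Cpb2 (0.38). Nearest to Gys1 were Iqgap1, Zgrf1 and Mastl, a mitotic kinase gene (0.25 each). Nearest to Pygb were Nck2 (0.23), Gemin5 (0.27) and Cul7 (0.28), and nearest to Pygm were Cep170 (0.22), Cttnbp2nl (0.23) and Anxa5 (0.23). Anxa5 went from 8.83 FPKM in NL and 11.85 FPKM in c-MYC to 44.45 FPKM in c-MYC/FOXO1AAA.

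Short lengths like that of Ugp2 were also found, among others, for Gaa (241 bp, a non-coding transcript) and Phkb (763 bp, with a longest coding transcript of 5351 bp). Further cases were Slc2a2 (1649 bp, a retained-intron transcript, with a coding transcript of 5569 bp) and Pgm2l1 (2433 bp, a nonsense-mediated decay transcript, with a coding transcript of 8834 bp). The FPKM of all these genes cannot be set beside those of other genes, while their differences between libraries are unaffected.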
